A study of Polistes metricus with 16 samples.

Results

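The 200 steadiest transcripts in larval heads of the paper wasp Polistes metricus are described here, out of 7269 transcripts that were covered by enough reads to be considered and 74517 in the count table. The members were chosen by their measured values in all 16 larvae. Counts were converted to CPM, the count per 1000000 counts of a library, with TMM factors, which correct library totals for the pull of a few transcripts with very many reads. Transcripts with a mean of 20 CPM or more were kept as candidates, and those with the 200 lowest standard deviations (SD) of log2(CPM + 0.5) over the 16 larvae were taken. The steadiness of the members and their small differences between groups therefore follow from the choice and are given as a description. Fits over all transcripts supply their fold changes and standard errors, and how many of them were called is printed beside the share called over all transcripts without being read as a test of the members.

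Each library held the messenger RNA of 1 female fifth-instar head, and there were 4 libraries in each of 4 groups. The worker-reared larvae, on the path to becoming queens, were collected in late summer 2010 at a field site in Iowa, and the foundress-reared larvae, on the path to becoming workers, in late spring 2010 at that site. The restricted and ad libitum larvae came from North Carolina nests reared in a laboratory in 2009, with a worm given every 3 days or every 1 day. Rearing caste cannot be told apart from season here, and field setting cannot be told apart from year and place. No genotype, allele or drug treatment is named for any group, and replicate numbers follow the order of the records. The labels do not say which larvae came from the same nest, so spreads are those between these larvae.

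Transcripts that hold a constant level across individuals are of practical use in gene expression work, because they can serve as internal references against which other transcripts are measured. In animals such a role is usually given to genes that every cell needs for protein synthesis, energy metabolism or the cytoskeleton. In social insects, where caste, season and nutrition change the expression of many genes, a reference has to be checked across those conditions. The files pair no identifier with a gene name, sequence or length, so the functions of the members, the cell types they mark and their levels per unit length were not analysed here. CPM grow with the length of a transcript, so a CPM set beside that of another transcript compares reads and not molecules, and the labelled tissue could not be checked against markers. In a head, fewer cells of a type and less RNA per cell cannot be told apart.

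Over the 16 larvae the members had a median SD of 0.119 on the log2 scale (0.0473 to 0.129), against 0.317 over all candidates, whose range reached 4.48. The highest larva exceeded the lowest by 1.14-fold to 1.52-fold, with a median of 1.34-fold. That ratio stayed under 1.5 in 198 of 200 members, and in 631 of the 7269 candidates (8.68%). The 2 exceptions were PmetTSAr1.1-006398, at 1.52-fold, and PmetTSAr1.1-003346, at 1.504-fold. As a coefficient of variation of CPM, the spread of a member was 3.29% to 9.75%.

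The limit of 200 fell in a dense part of the distribution. The last members inside it were PmetTSAr1.1-001494 with an SD of 0.12875, PmetTSAr1.1-005271 with 0.12884 and PmetTSAr1.1-003346 with 0.12886. The first ones outside were PmetTSAr1.1-005633 with 0.12908, PmetTSAr1.1-000417 with 0.12914 and PmetTSAr1.1-012760 with 0.12927. Membership near the limit was thus a matter of small differences, whereas the steadiest member stood apart from the others at the opposite end.

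That member was PmetTSAr1.1-002736, with an SD of 0.0473 against 0.0719 for the next. It measured 157, 151, 160 and 158 CPM in worker-reared replicates 1 to 4 and 164, 167, 163 and 172 CPM in foundress-reared replicates 1 to 4. In the laboratory larvae it measured 152, 159, 160 and 160 CPM (restricted) and 155, 163, 162 and 160 CPM (ad libitum). The 4 foundress-reared larvae were each higher than the 4 worker-reared and the 4 restricted larvae. They overlapped the ad libitum larvae only where foundress-reared replicate 3 (162.83 CPM) lay below ad libitum replicate 2 (162.9 CPM). The restricted and ad libitum larvae overlapped each other. The group means were 156 ± 3.92, 166 ± 3.84, 158 ± 3.89 and 160 ± 3.79 CPM in the same order (SD, n = 4 each). Of its variance, 56.3% lay between groups, so that even this transcript was not equally steady in every comparison.

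The next steadiest transcripts included several that lay close together in the numbering. PmetTSAr1.1-012596 measured 37.5, 32.1, 32.2 and 31.8 CPM in worker-reared larvae, 35.2, 33.8, 35.7 and 35.8 CPM in foundress-reared ones, 32.2, 33.2, 35.0 and 34.1 CPM in restricted and 33.1, 34.6, 34.0 and 31.2 CPM in ad libitum larvae. All 4 groups overlapped, and worker-reared replicate 1 was the highest larva. PmetTSAr1.1-012590 measured 40.8, 38.3, 36.2 and 37.4 CPM in worker-reared larvae, 37.6, 35.6, 38.5 and 40.2 CPM in foundress-reared ones, 34.8, 35.4, 39.3 and 36.0 CPM in restricted and 34.5, 37.6, 37.4 and 35.6 CPM in ad libitum larvae, again with worker-reared replicate 1 highest. PmetTSAr1.1-012599 had group means of 31.8 ± 1.72, 33.5 ± 2.14, 30.8 ± 1.24 and 32.5 ± 1.43 CPM (worker-reared, foundress-reared, restricted, ad libitum). The log2 levels of these 3, less their group means, correlated at 0.688, 0.763 and 0.7996 over the 16 larvae (Pearson, as a description). The members PmetTSAr1.1-012593 (rank 19 by SD) and PmetTSAr1.1-012582 (rank 103) also lay nearby in the numbering. Whether any of these transcripts are isoforms or copies of 1 gene that share reads was not tested.

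The other members of the first 10 each kept to a narrow band. PmetTSAr1.1-006572 measured 48.5, 44.6, 52.6 and 48.1 CPM in worker-reared and 44.7, 48.1, 53.9 and 49.8 CPM in foundress-reared larvae, and 46.1 to 51.4 CPM in restricted and 47.7 to 50.9 CPM in ad libitum larvae. Only 2.45% of its variance lay between groups. The share was 1.90% for PmetTSAr1.1-006075, at 89.9 CPM on average over a range of 80.0 to 101 CPM. It was 2.81% for PmetTSAr1.1-013416, which ran from 22.0 to 27.0 CPM. PmetTSAr1.1-006447 ran from 40.4 to 50.3 CPM, PmetTSAr1.1-003052 from 31.6 to 39.9 CPM and PmetTSAr1.1-016307 from 31.0 to 38.2 CPM. No group lay apart from all the others in these 6, but in PmetTSAr1.1-003052 every worker-reared larva was above every foundress-reared larva.

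**Figure D1:**
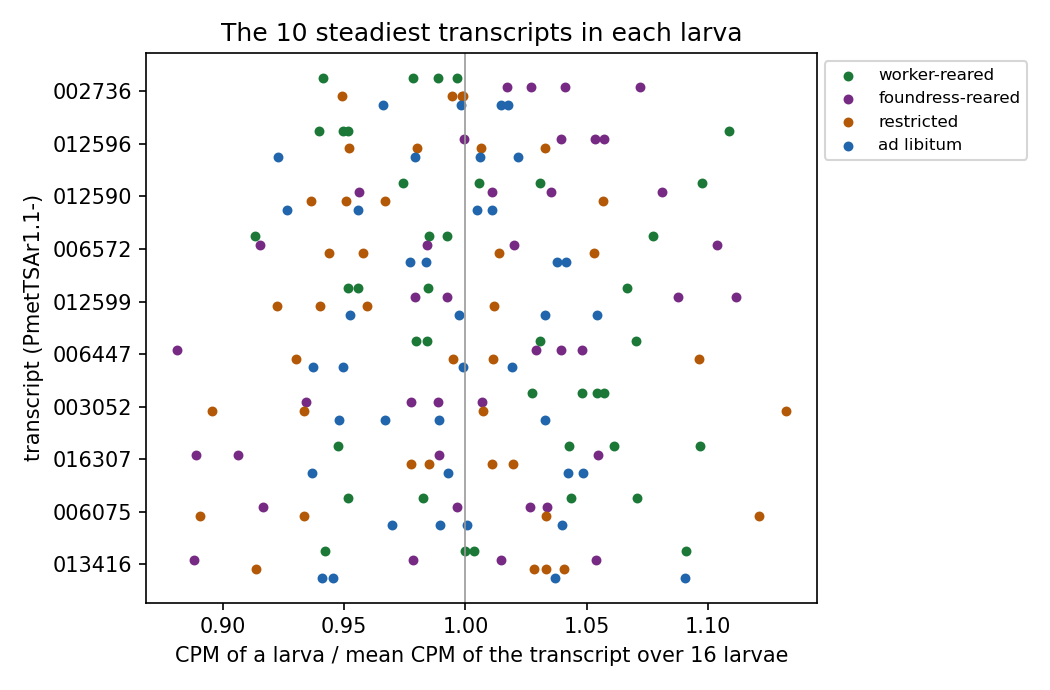
CPM of the 10 members with the lowest SD in each of the 16 larvae, divided by the transcript's own mean (horizontal axis, no unit), 1 row per transcript and 1 point per larva, coloured by group. Foundress-reared larvae lie to the right of worker-reared and restricted larvae in the first row, and no group lies apart from all the others in the other rows. The ratio of the highest to the lowest larva of PmetTSAr1.1-002736 was 1.14.

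Members were found in each quartile of read coverage of the candidates, but not at the highest levels, which reached 35444 CPM. Their mean level ran from 20.02 to 538 CPM with a median of 49.5 CPM, near the 48.7 CPM of all candidates, and none was among the 100 transcripts with the highest CPM, which began at 910 CPM. When candidates were divided into quartiles of mean CPM, members made up 2.31% of the lowest, 3.08% and 3.25% of the middle ones and 2.37% of the highest. The median SD of candidates was 0.301, 0.302, 0.302 and 0.379 in these quartiles. The members with the highest CPM were PmetTSAr1.1-000337, PmetTSAr1.1-001129 and PmetTSAr1.1-001840. PmetTSAr1.1-000337 measured 587, 459, 629 and 524 CPM in worker-reared larvae, 601, 567, 551 and 548 CPM in foundress-reared ones, 505, 526, 585 and 521 CPM in restricted larvae and 516, 512, 461 and 517 CPM in those fed ad libitum. Its 4 groups overlapped except that every foundress-reared larva was above every ad libitum larva. PmetTSAr1.1-001129 ran from 397 to 552 CPM and PmetTSAr1.1-001840 from 306 to 384 CPM, both with restricted replicate 3 lowest and restricted replicate 2 highest.

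Random counting alone makes a transcript vary, and it sets a floor on how steady a transcript can look. The lowest count of a member in any larva was 387, and the median of these lowest counts was 1062. The SD expected from counting had a median of 0.0368 on the log2 scale in members, which was 10.4% of their variance (0.780% to 39.8%), against 1.27% in candidates. With the counting variance subtracted the SD of members had a median of 0.111 and a minimum of 0.0427, again in PmetTSAr1.1-002736, followed by PmetTSAr1.1-012596 and PmetTSAr1.1-012590. Most of the variation of the members was thus larger than counting error, and 183 of the 200 were also among the 200 lowest after the subtraction. The counting SD treats reads as independent molecules and covers counting error only.

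**Figure D2:**
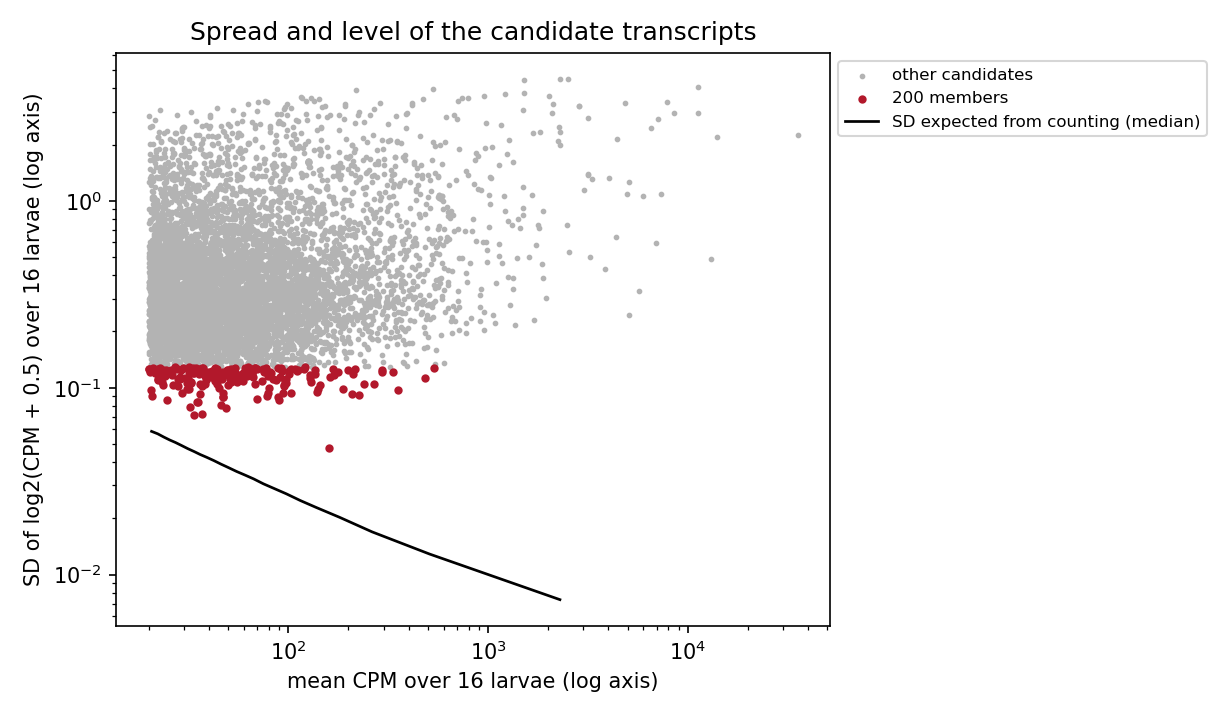
SD of log2(CPM + 0.5) over 16 larvae (vertical log axis) against mean CPM (horizontal log axis) for the 7269 candidates, with the 200 members in red and the SD expected from counting as a black line (medians of successive groups of candidates). Members lie below an SD of 0.129 at all levels up to 538 CPM, and 1 point, PmetTSAr1.1-002736, lies at 0.0473.

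With library totals as the only scale, the members varied more. Together they took 1.01% to 2.03% of the counts of a library, a 2.01-fold range. The share was 1.77%, 1.48%, 2.03% and 1.58% in worker-reared replicates 1 to 4 and 1.01%, 1.26%, 1.76% and 1.06% in foundress-reared replicates 1 to 4. In restricted larvae it was 1.37%, 1.31%, 1.56% and 1.86%, and in ad libitum larvae 1.52%, 1.70%, 1.01% and 1.84%. The groups overlapped in this share, and the libraries with the lowest shares were those with low TMM factors. The members were chosen as steady after scaling by these factors, so that relation follows from the choice. Foundress-reared replicate 1, foundress-reared replicate 4 and ad libitum replicate 3 had factors of 0.678, 0.701 and 0.715, while worker-reared replicate 3 had the highest factor, 1.33. The 10 transcripts with the most counts were taken in each library separately. They held 32.1% of counts in foundress-reared replicate 4 and 28.1% in ad libitum replicate 3. The share was 7.59% in worker-reared replicate 3, but 14.2% in foundress-reared replicate 1.

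After scaling, the summed level of the members was 14909 ± 433 CPM in worker-reared larvae, 14999 ± 189 in foundress-reared ones, 14581 ± 260 in restricted larvae and 14473 ± 268 in those fed ad libitum (SD, n = 4 each). It ran from 14073 CPM in ad libitum replicate 3 to 15307 CPM in worker-reared replicate 1, a 1.09-fold range. With library totals alone as the scale, the members' median SD was 0.340 (0.256 to 0.423) against a median of 0.448 over candidates, so that each member was below that median, and the best placed of them ranked 344 of 7339. None of the 200 steadiest transcripts on that scale was a member. Their own median SD with TMM factors was 0.294. The members are therefore the steadiest on the TMM scale, which takes the bulk of the transcripts as fixed, and not as a share of all reads. Counts alone cannot say which of these scales follows the amount of RNA per head.

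**Figure D3:**
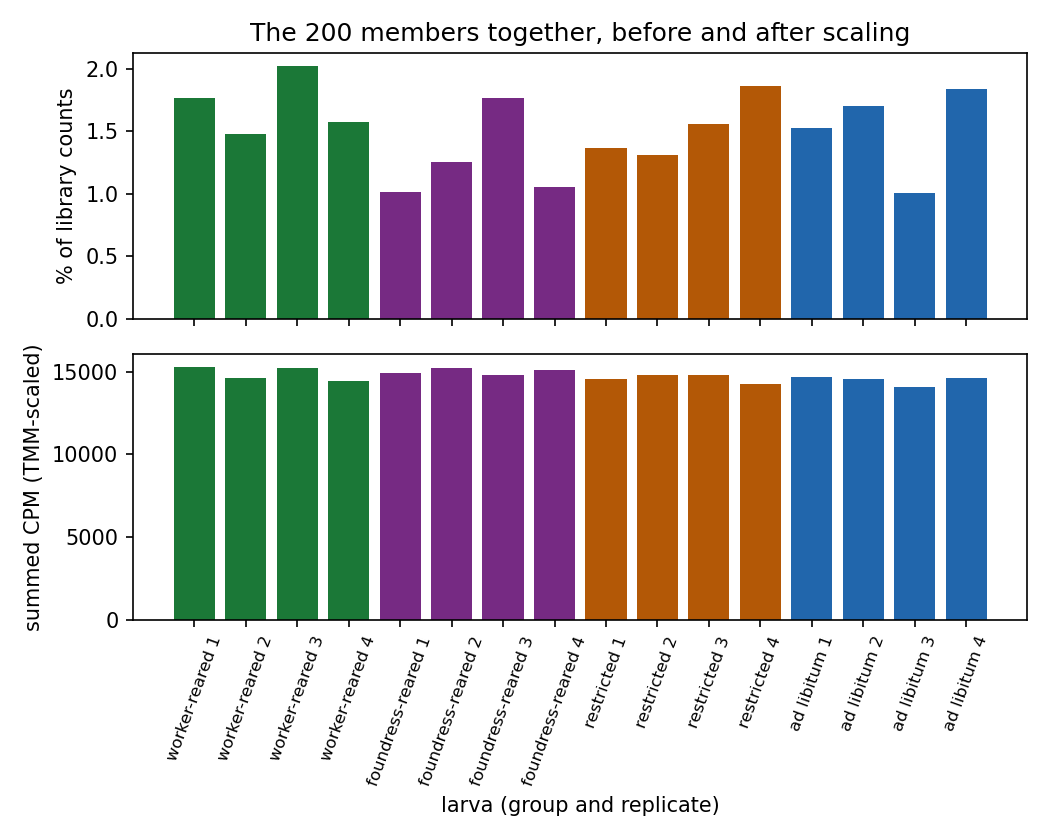
Summed level of the 200 members in each of the 16 larvae as a percentage of library counts (upper bars) and as TMM-scaled CPM (lower bars), coloured by group. The upper bars run from 1.01% to 2.03% and the lower ones from 14073 to 15307 CPM.

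Steadiness was next read in larvae that had no part in the choice, which is the comparison that the rule leaves free. Among the same 7269 candidates, whose levels had been averaged over all larvae, the 200 lowest SDs were taken in the 8 field larvae alone with TMM factors of their own, and these 200 transcripts were read in the 8 laboratory larvae. Their median SD rose from 0.0850 in the field larvae to 0.161 in the laboratory larvae, where all candidates had 0.306. Of the 200, 195 (97.5%) were below the candidates' median there and 72 (36.0%) were among the steadiest 10%. In the opposite direction the median SD rose from 0.0901 in laboratory larvae to 0.160 in field larvae, against 0.279 for candidates, with 185 (92.5%) below the median and 73 (36.5%) in the steadiest 10%. The spread of a transcript was thus partly carried from one set of larvae to the other. Each list was picked for its low SDs where it was chosen, so a rise in the other larvae follows in part from the choice.

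The lists from the separate sets shared 25 transcripts, 12.5% of each, where each list held 2.75% of the candidates. All 25 were among the 200 members, of which 81 were in the field list, 77 in the laboratory list and 67 in neither. The members were chosen in these same larvae, so their overlap with the lists follows largely from the choice and is a description only. Across the 7269 candidates the SDs in field and in laboratory larvae had a Spearman correlation of 0.706, and 0.678 to 0.758 within quartiles of mean CPM. These points share libraries, depth and, for related transcripts, reads.

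Of the 25, PmetTSAr1.1-002736 had the lowest value of the larger of its SDs, 0.0615 in field and 0.0303 in laboratory larvae, where it ranked first. PmetTSAr1.1-002944 followed with 0.0701 and 0.0680. It measured 87.9, 79.6, 92.2 and 83.2 CPM in worker-reared larvae, 83.5, 82.7, 83.5 and 83.3 CPM in foundress-reared ones, 77.0, 69.3, 81.1 and 76.3 CPM in restricted and 77.6, 76.3, 73.3 and 78.6 CPM in ad libitum larvae. Field larvae were mostly higher than laboratory larvae, with an overlap between worker-reared replicate 2 and restricted replicate 3. PmetTSAr1.1-002439 (0.0760 and 0.0686), PmetTSAr1.1-001707 (0.0785 and 0.0806) and PmetTSAr1.1-012688 (0.0829 and 0.0663) completed the first 5. PmetTSAr1.1-001707 ran from 42.9 to 51.8 CPM and PmetTSAr1.1-012688 from 76.4 to 101 CPM over all larvae.

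The transcript with the lowest SD in field larvae was less steady in laboratory larvae. PmetTSAr1.1-005877, named here after its values were seen, ranked first in field larvae with an SD of 0.0258, below the 0.0310 that counting gives on average for it over 16 larvae. It measured 66.1, 70.6, 71.2 and 66.0 CPM in worker-reared and 67.6, 69.7, 67.8 and 68.6 CPM in foundress-reared larvae. In the laboratory it measured 76.8, 76.2, 77.8 and 65.2 CPM in restricted and 66.7, 63.9, 74.4 and 69.2 CPM in ad libitum larvae, with an SD of 0.128 and rank 446. Restricted replicates 1 to 3 and ad libitum replicate 3 were above every field larva, and restricted replicate 4 lay with the lower larvae. A transcript picked for the lowest SD in some larvae tends to have a higher one in others. The rise is therefore not read as a difference between field and laboratory.

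**Figure D4:**
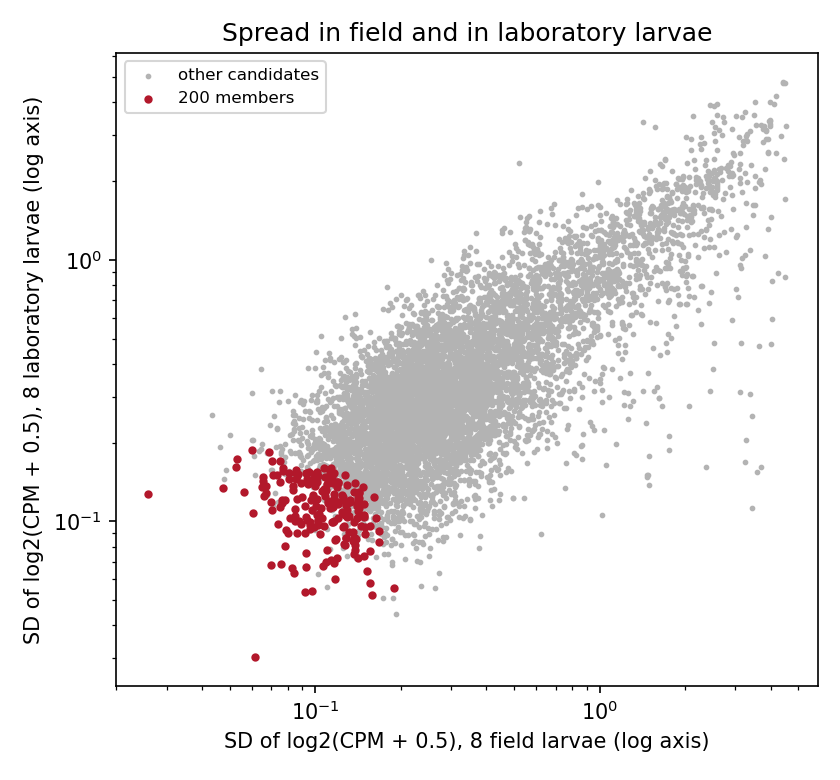
SD of log2(CPM + 0.5) over the 8 laboratory larvae (vertical log axis) against that over the 8 field larvae (horizontal log axis) for the 7269 candidates, each set with TMM factors of its own, and members in red. Members gather at the lower left, PmetTSAr1.1-002736 is lowest on the laboratory axis at 0.0303 and PmetTSAr1.1-005877 is lowest on the field axis at 0.0258.

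The lists were also compared as yardsticks. The mean log2 level of the 200 transcripts chosen in field larvae gave a scaling factor for each laboratory library, which was set beside the TMM factor of that library. The ratio lay between 0.962 (ad libitum replicate 3) and 1.03 (ad libitum replicate 1), while the same factor from all candidates lay between 0.881 and 1.08 times TMM. For laboratory-chosen transcripts read in field libraries the ratio lay between 0.962 (worker-reared replicate 2) and 1.04 (worker-reared replicate 1), against 0.810 to 1.14 from all candidates. Transcripts chosen in one set of larvae thus lay between 0.962 and 1.04 times the TMM factors of the other set. The lists were chosen for following TMM in their own larvae, and the method of scaling was the same in both.

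Larvae differed in how far the members strayed from their own means. The root mean square deviation was 0.0716 in ad libitum replicate 1 and 0.0784 in ad libitum replicate 4, the smallest of the 16. It was largest in restricted replicate 2 (0.144), restricted replicate 3 (0.142), foundress-reared replicate 1 (0.134) and ad libitum replicate 3 (0.133). Restricted replicate 3 was the highest larva for 33 members and restricted replicate 2 the lowest for 31, whereas restricted replicate 4 was the highest for 1 and the lowest for 21. The median within-group SD of a member was 0.0936 in worker-reared larvae, 0.0954 in foundress-reared ones, 0.115 in restricted and 0.0777 in ad libitum larvae. Candidates followed a like order, with 0.214, 0.251, 0.315 and 0.206. The ad libitum group had the smallest of the 4 SDs in 82 members and the restricted group in 26. This count was not made over candidates, whose median SD was also smallest in ad libitum and largest in restricted larvae.

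The variation that the members kept was described by principal components. The rule left out transcripts with a large spread in these same larvae. A smaller first component in members than in candidates can follow from that choice and is not read as a trait of theirs. The first principal component of their log2 levels held 18.4% of their variance, where 15 equal components would hold 6.67% each, and the first component of the candidates held 48.4%. With each transcript brought to an SD of 1 these shares were 17.7% and 35.0%. Restricted replicate 2 lay at -1.41 and restricted replicate 1 at -0.983 on the members' component, opposite to worker-reared replicate 3 at 1.19 and worker-reared replicate 1 at 0.785. Of the variance of that component, 30.5% lay between the 4 groups, where 3 of 15 degrees of freedom give 20%. The rule used these larvae, so this share is a description too.

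Between groups, the means of a member differed by 0.0257 to 0.273 on the log2 scale from the lowest to the highest group, with a median of 0.146, against 0.478 over candidates. Between-group differences made up 27.6% of a member's variance at the median and 32.9% of a candidate's. The highest group mean was foundress-reared in 67 members, worker-reared in 64, restricted in 35 and ad libitum in 34. The lowest was restricted in 74, ad libitum in 56, worker-reared in 37 and foundress-reared in 33. These counts were not made over candidates. The fitted field-over-laboratory difference was positive in 133 of the 200 members and in 67.0% of the 7261 candidates tested. A higher field level was thus not particular to the members. The median field-over-laboratory difference of members was 0.03 with TMM factors and 0.04 with DESeq2 size factors. It was -0.01 with factors from the members' own counts. Those factors hold the members' summed level fixed, so a value near 0 was set by that choice of scale.

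Next, 4 contrasts were fitted with edgeR over all 36337 transcripts that passed a filter on low counts, and all 200 members passed it. No member was called at an adjusted p under 0.05 in any of them. For caste (worker-reared levels divided by foundress-reared ones) 0.044% of all transcripts were called, in the nutrition contrast (ad libitum over restricted) 0%, in the interaction (how far the caste value exceeds the nutrition value on the log2 scale) 0.548% and in the field-over-laboratory contrast 0.98%. These shares, from 16, 0, 199 and 356 transcripts, depended on single libraries. Without restricted replicate 4 the calls were 26, 3016, 3117 and 2277, and no member was among them. With any other 1 library left out, caste calls ran from 1 (without foundress-reared replicate 2) to 46 (without foundress-reared replicate 3). Nutrition calls then stayed at 0, interaction calls ran from 0 (without ad libitum replicate 2) to 309 (without foundress-reared replicate 3) and field-over-laboratory calls from 193 (without restricted replicate 2) to 368 (without foundress-reared replicate 3). At an unadjusted p under 0.05 there were 4, 6, 3 and 5 members in these contrasts (2.0%, 3.0%, 1.5% and 2.5%), against 16.1%, 13.6%, 19.2% and 15.6% of all transcripts tested. With DESeq2 the members called were 1, 0, 0 and 2, against 2.77%, 1.46%, 6.03% and 3.21% of all transcripts. The rule used these larvae to exclude transcripts that differ, so nothing is read from these counts.

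The fitted differences of members were narrow in each contrast. In the caste contrast the log2 fold change ran from -0.24 to 0.22 with a median of -0.04, and the median absolute value was 0.08 in members against 0.23 in candidates. In the nutrition contrast it ran from -0.26 to 0.21 with a median of -0.02 (absolute 0.06 against 0.25). With factors from the members' own counts, which hold their summed level fixed, that median was 0.01. The interaction values ran from -0.29 to 0.38, and the field-over-laboratory values from -0.14 to 0.19. The median standard error of a member was 0.11 in the caste and nutrition contrasts, where that of a candidate was 0.19. These standard errors come from a fit that shares information on spread across all transcripts, and not from a member's own values alone.

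**Figure D5:**
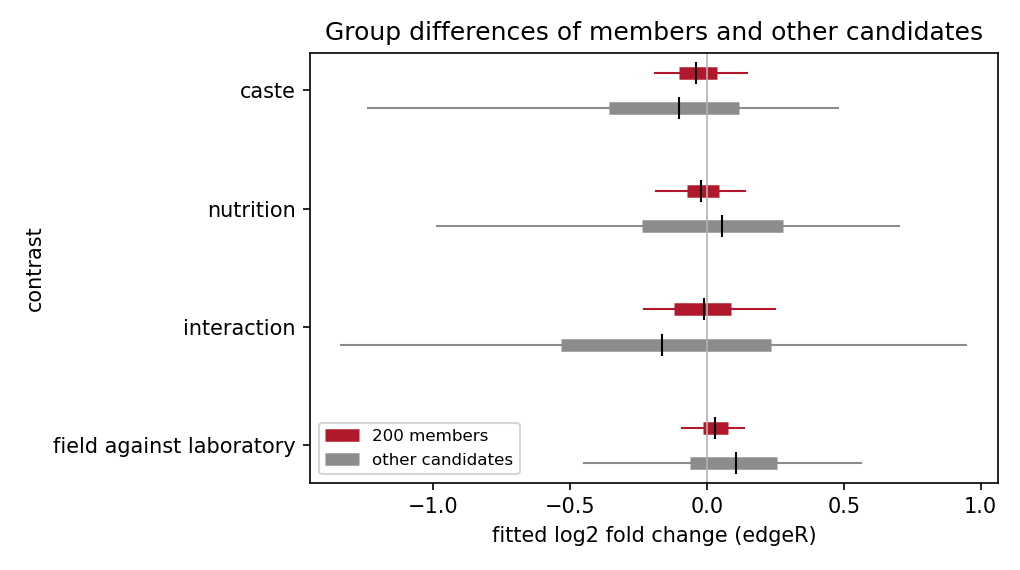
Fitted edgeR log2 fold change (horizontal axis) of the 200 members in red and the other candidates in grey for each of the 4 contrasts. Thick bars span the 25th to 75th percentile, thin lines the 5th to 95th, and ticks mark the median. In the caste contrast the thin line runs from -0.19 to 0.15 in members and from -1.24 to 0.48 in other candidates.

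The members at the ends of these ranges show how large a difference the rule let through. PmetTSAr1.1-005996 had the most positive caste value, 0.22 (SE 0.10), at 38.8, 33.7, 38.2 and 34.0 CPM in worker-reared and 29.9, 30.8, 29.0 and 32.5 CPM in foundress-reared larvae. PmetTSAr1.1-005030 had the most negative, -0.24 (SE 0.10), at 48.2, 42.3, 45.9 and 42.9 CPM against 53.7, 47.6, 51.2 and 54.8 CPM. The groups did not overlap in the first and overlapped in the second, where worker-reared replicate 1 was above foundress-reared replicate 2. For PmetTSAr1.1-005030 the laboratory larvae, at 41.6 to 47.1 CPM, were level with the worker-reared ones.

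In the nutrition contrast PmetTSAr1.1-016562 had the most positive value, 0.21 (SE 0.09), at 36.3, 39.5, 32.5 and 37.2 CPM in ad libitum and 30.5, 29.9, 31.1 and 32.2 CPM in restricted larvae, which did not overlap. PmetTSAr1.1-012823 had the most negative, -0.26 (SE 0.11), at 57.7, 53.7, 56.9 and 56.3 CPM against 62.8, 73.3, 71.8 and 56.8 CPM. Restricted replicate 4 measured within the ad libitum range, away from the rest of its group.

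The most positive interaction value was that of PmetTSAr1.1-004705, 0.38 (SE 0.14). It measured 22.4, 23.4, 26.2 and 23.6 CPM in worker-reared larvae, 22.7, 20.1, 21.7 and 21.7 CPM in foundress-reared ones, 23.5, 26.0, 26.0 and 22.0 CPM in restricted and 20.5, 20.3, 20.3 and 21.7 CPM in ad libitum larvae. The means were higher in worker-reared and restricted larvae, worker-reared and foundress-reared larvae overlapped, and restricted and ad libitum larvae did not. PmetTSAr1.1-002382 had the most negative value, -0.29 (SE 0.13), with the reverse order: 41.7 ± 1.75 and 40.0 ± 3.86 CPM in worker-reared and restricted, 45.2 ± 1.83 and 44.9 ± 1.08 CPM in foundress-reared and ad libitum larvae (SD, n = 4 each).

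Between field and laboratory, PmetTSAr1.1-002439 had the most positive value, 0.19 (SE 0.07). It measured 82.3, 88.8, 95.6 and 89.2 CPM in worker-reared and 91.6, 87.0, 85.4 and 79.6 CPM in foundress-reared larvae, against 73.2, 75.8, 77.7 and 73.0 CPM in restricted and 81.9, 77.7, 74.0 and 79.2 CPM in ad libitum larvae. Field and laboratory larvae overlapped only in foundress-reared replicate 4 and ad libitum replicate 1. The same transcript was among the 5 with the lowest value of the larger of their field and laboratory SDs, and 72.0% of its variance over 16 larvae lay between groups. PmetTSAr1.1-003682 had the most negative value, -0.14, and a level of 57.2 CPM in restricted replicate 2 against 40.0 to 49.5 CPM in the other larvae.

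DESeq2 called 3 members, named here because the count is small: PmetTSAr1.1-002439 and PmetTSAr1.1-003792 between field and laboratory, and PmetTSAr1.1-001024 for caste. PmetTSAr1.1-001024 measured 228, 212, 231 and 223 CPM in worker-reared and 243, 245, 253 and 249 CPM in foundress-reared larvae, with no overlap (edgeR log2 fold change -0.17, SE 0.10). It held 77.4% of its variance between groups, the highest share of the 200. PmetTSAr1.1-003792 measured 64.6 ± 4.41 and 64.3 ± 3.29 CPM in the field groups and 56.6 ± 2.55 and 56.9 ± 5.09 CPM in restricted and ad libitum larvae.

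Members that are neighbours in the numbering may not be independent of each other. There were 13 pairs of members with consecutive identifiers, covering 25 transcripts. The log2 levels less group means correlated at -0.16 to 0.97 in these pairs with a median of 0.66, against a median of 0.08 over all 19900 pairs of members (Pearson over 16 larvae, as a description). High values were not limited to neighbours. Of all pairs, 8 were over 0.9, among them PmetTSAr1.1-001525 with PmetTSAr1.1-004523 (0.93) and PmetTSAr1.1-002944 with PmetTSAr1.1-006744 (0.92). No correlation was computed for consecutive pairs of candidates, so whether a median of 0.66 is usual for neighbours is not known. In PmetTSAr1.1-001525 and PmetTSAr1.1-001526, with a correlation of 0.97, the restricted larvae measured 276, 314, 250 and 287 CPM of the first and 219, 250, 189 and 232 CPM of the second, in the same order. PmetTSAr1.1-003345 and PmetTSAr1.1-003346 correlated at 0.91, and restricted replicate 3 was the highest larva in both, at 74.4 and 75.5 CPM. Whether such pairs come from one gene or share reads was not tested.

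Members were found from identifier 146 to 19760. In blocks of 2000 identifiers with at least 500 candidates, they made up 1.92% of candidates 1 to 2000, 2.78% of 2001 to 4000, 4.42% of 4001 to 6000 and 4.37% of 6001 to 8000. In the later blocks the share was 3.06% at 12001 to 14000 and 0.498% at 14001 to 16000. What the numbering stands for is not given in the sources used here.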

How the data were processed

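The authors deposited a table of whole-number counts for assembled transcripts, 1 column per larva. The submitters' processing notes list Bowtie2 and eXpress without versions. Read strand, filters and how shared reads were counted were not given in the sources used here. Library totals ran from 28359372 to 37626473 counts. CPM were computed from these counts with TMM factors over all rows (edgeR 4.0.16, R 4.3.3), and spread as the SD of log2(CPM + 0.5). The counting SD assumed Poisson counts.

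Contrasts were fitted with edgeR's robust quasi-likelihood test over all 16 libraries (filterByExpr, TMM from the rows kept, Benjamini-Hochberg adjustment over 36337 transcripts, threshold 0.05), with DESeq2 1.42.0 as an alternative. Scripts were checked on simulated data. The named transcripts followed a rule: the lowest SDs, highest levels, those at the limit, the extremes of each contrast, the lowest SDs after subtraction of counting variance and over both sets of larvae, and the closest consecutive pairs. PmetTSAr1.1-005877, PmetTSAr1.1-006398, PmetTSAr1.1-001024, PmetTSAr1.1-003792, PmetTSAr1.1-004523, PmetTSAr1.1-006744, PmetTSAr1.1-012593 and PmetTSAr1.1-012582 were added after their values were seen. Members, rule and tests were chosen with earlier results of these data known. Gene lists were not run, as identifiers carry no names.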

Additional observations from a re-analysis of the deposited data

Results flagged for a closer look

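Among 144 groups of 4 values examined in named members and library measures, 12 held a larva far from the rest of its group, where chance gives about 7.2. PmetTSAr1.1-002736 measured 152 CPM in restricted replicate 1 against 159 to 160 CPM in the others, and worker-reared replicate 1 had 37.5 CPM of PmetTSAr1.1-012596 where its group had 31.8 to 32.2 CPM. For PmetTSAr1.1-006447 the low value was 40.4 CPM, in foundress-reared replicate 1 (47.2 to 48.1 CPM in the others). For PmetTSAr1.1-003792 it was a high one, 69.2 CPM in replicate 3 of that group (62.0 to 63.2 CPM). PmetTSAr1.1-013416 measured 22.6 CPM in restricted replicate 4 (25.4 to 25.7 CPM) and PmetTSAr1.1-001840 measured 306 CPM in restricted replicate 3 (374 to 384 CPM). PmetTSAr1.1-003682 measured 57.2 CPM in restricted replicate 2 against 44.6 to 45.1 CPM. Within the ad libitum group, PmetTSAr1.1-000337 measured 461 CPM in replicate 3 (512 to 517 CPM), PmetTSAr1.1-003346 measured 58.3 CPM in replicate 2 (61.6 to 61.8 CPM) and PmetTSAr1.1-004705 measured 21.7 CPM in replicate 4 (20.3 to 20.5 CPM). The summed level of the members was 14073 CPM in ad libitum replicate 3 against 14584 to 14647 CPM, and their root mean square deviation was 0.134 in foundress-reared replicate 1 against 0.0998 to 0.104.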

How the results depend on the processing

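Of the 200 members, 149 were also chosen with DESeq2 size factors, 140 with upper-quartile factors, 165 with TMM factors from filtered rows and 0 with library totals only, where their median SD was 0.340. Other measures kept 144 (highest minus lowest), 116 (SD within groups) and 74 (median absolute deviation). A minimum mean of 10, 50 or 1 CPM kept 153, 98 and 137 (the minimum of 50 CPM removes members below it), and pseudocounts of 5 and 0.05 kept 170 and 198. Field larvae alone kept 80 and laboratory larvae alone 77, with the minimum applied to those larvae. Omission of 1 larva kept 141 (without restricted replicate 3) to 185, and 102 members were kept in all 16 omissions. PmetTSAr1.1-002736 was kept in 30 of 31 settings, lost only with library totals, and PmetTSAr1.1-003346 in 8.

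The 25 transcripts steady in both sets became 104 with lists of 500, 49 with library totals only and 42 with a minimum of 50 CPM, and 17 to 28 with 1 larva omitted. The members' median SD was 0.114 to 0.124 in those omissions. Members called stayed at 0 with edgeR under other factors, without the filter and in each omission, while DESeq2 called 1 for caste and 2 between field and laboratory; the cause was not tested. Over all transcripts the calls in those omissions ran from 1 to 46 (caste), 0 to 3016 (nutrition), 0 to 3117 (interaction) and 193 to 2277 (field over laboratory), the highest of the last 3 without restricted replicate 4, so the members' 0 stands beside a background that 1 library can change. No replicate numbers are shared by the labels, so no paired fit was made. Levels of 20 CPM limit the precision of the members with the fewest reads, whose counting SD reached 0.0580.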
